A study of Mus musculus with 2 samples.

Results

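Nuclear receptors are transcription factors whose activity is set, in many of them, by a small lipophilic ligand that enters the cell. Most hold a DNA-binding domain with zinc fingers and a ligand-binding domain. Retinoid, thyroid hormone, vitamin D, sterol and fatty acid receptors bind DNA as heterodimers with an RXR partner, steroid receptors bind as homodimers, and orphan receptors have no settled ligand. In T cells, retinoic acid, glucocorticoids, vitamin D and oxysterols are known to act through these proteins. The chromatin around 42 mouse nuclear receptor genes, listed by name, is described here in activated regulatory T cells. All 42 were found in the GENCODE M21 annotation of mm10, which holds 21938 protein-coding genes on the autosomes and sex chromosomes. The Nr4a genes and Rora are not on the list, and Rorb is.

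The cells were activated regulatory T cells from male mice aged 4 months that carried the Foxp3CreERT2 and Rosa26YFP alleles. The first places a tamoxifen-inducible Cre recombinase at Foxp3, the gene of the lineage-defining factor of regulatory T cells, and the second is a fluorescent reporter of Cre activity. The labels name a bone marrow haematopoietic cell as the origin, and do not say how the cells were activated or whether tamoxifen was given. ATAC-seq, in which a transposase cuts accessible DNA, was run on 2 libraries, technical replicates of biological replicate 1, with no control group. The peak lists pool both libraries, so no value per library, no SD and no test can be given, and the sequencing depth is unknown.

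A region is a set of overlapping peaks from the list that passed an irreproducible discovery rate (IDR) of 0.05, the expected share of peaks that do not repeat between 2 inputs. This thresholded list gave 26090 regions. A looser list, called on pseudoreplicates, gave 50037. A promoter region lay within 1000 bp of any transcription start site (TSS) of a gene. A region was assigned to the gene whose TSS was nearest to its strongest summit within 100 kb, and assigned regions that were not at a promoter are called distal. The signal value is the authors' enrichment of the strongest peak, for which no reference level is given in the sources used here. The labelled cell type was checked by marker genes: promoter regions were found at 8 of 10 T cell and 5 of 6 regulatory T cell markers, Foxp3 among them at a signal of 9.99 but not Cd4. Markers of other cells had them at 0 of 6 myeloid genes, 0 of 3 NK cell genes, 1 of 5 B cell genes, 1 of 2 CD8 T cell genes (Cd8b1, at 11.4) and 2 of 4 erythroid genes. Assigned regions were found at all 10 T cell and all 6 regulatory T cell markers, at 1 of 2 CD8 T cell, 2 of 5 B cell, 2 of 6 myeloid and 2 of 4 erythroid markers, and at 1 of 3 NK cell markers, Klrb1c, which had 8. What part other cells had in these lists was not tested.

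A promoter region was found at 19 of the 42 receptor genes (45.2%, Wilson 95% interval 31.2 to 60.1%), beside 49.1% of all protein-coding genes. At least 1 region was assigned to 23 (54.8%, interval 39.9 to 68.8%), beside 53.1% of all genes. The other 19 had neither (45.2%), beside 42.8%. These shares lie near the background, so the family as a whole did not stand apart in how often its genes were accessible, and the intervals cover counting error only. By subfamily, all 3 thyroid hormone and vitamin D receptors, 3 of 5 steroid receptors and 3 of 6 retinoid receptors had a promoter region. Neither xenobiotic receptor had any, nor did 6 of the 9 orphan NR2 genes have a region in the thresholded list. With groups of 2 to 9 genes, these counts are given as a description.

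**Figure D1:**
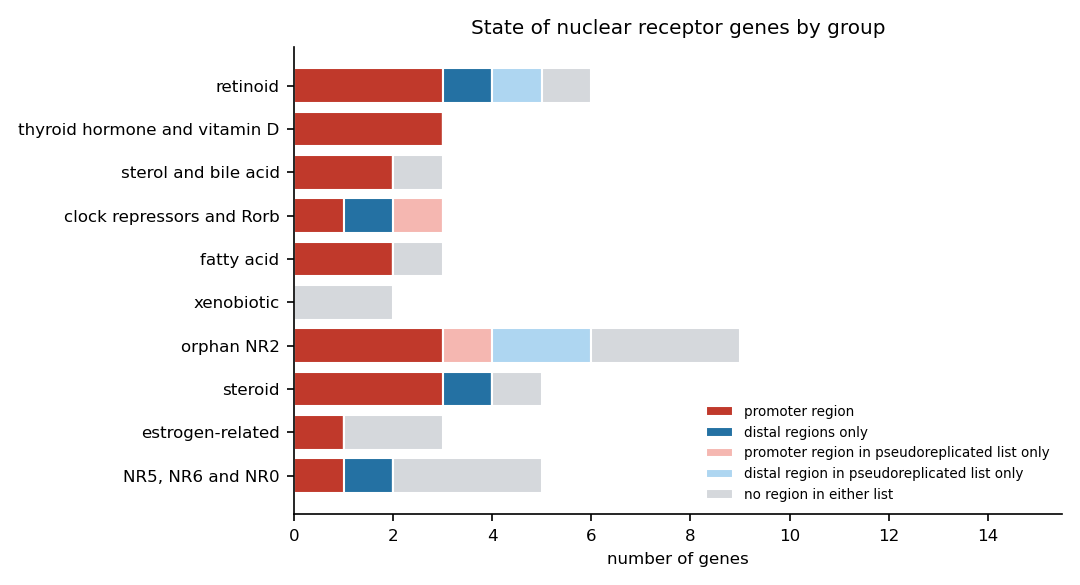
Number of genes (x axis) in each receptor group (y axis) by state: promoter region, distal regions only, region found only in the looser pseudoreplicated list, or no region in either list. The thyroid hormone and vitamin D group has promoter regions at all 3 genes, and both xenobiotic receptors fall in the class without any region.

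Sequences under the summits are shown for some of the windows that carried a searched motif, chosen to show each kind of site. Motifs were sought on both strands within 100 bp of the strongest summit of the members' 49 regions. Each window is from mm10 (GRCm38.p6), reads 5′ to 3′ on the strand of its gene, and has matches to the motifs in capitals. The first set holds the palindrome CACGTG, an E-box of the kind bound by CLOCK and BMAL1, in the genes of both Rev-erb proteins, the haem-binding repressors of the circadian clock. Windows were of the Nr1d1 intron (chr11:98773971-98774171, minus strand), upstream of Nr1d1 (chr11:98783415-98783615, minus strand) and the Nr1d2 promoter region (chr14:18238488-18238688, minus strand).
Nr1d1 intron: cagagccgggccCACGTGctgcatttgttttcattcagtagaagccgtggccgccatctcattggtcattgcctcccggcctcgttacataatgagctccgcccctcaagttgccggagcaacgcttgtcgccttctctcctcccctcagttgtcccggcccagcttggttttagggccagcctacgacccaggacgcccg
Nr1d1 upstream: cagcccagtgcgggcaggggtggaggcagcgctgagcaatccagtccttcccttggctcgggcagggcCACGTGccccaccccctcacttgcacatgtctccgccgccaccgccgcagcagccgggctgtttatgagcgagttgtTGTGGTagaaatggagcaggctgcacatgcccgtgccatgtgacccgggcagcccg
Nr1d2 promoter: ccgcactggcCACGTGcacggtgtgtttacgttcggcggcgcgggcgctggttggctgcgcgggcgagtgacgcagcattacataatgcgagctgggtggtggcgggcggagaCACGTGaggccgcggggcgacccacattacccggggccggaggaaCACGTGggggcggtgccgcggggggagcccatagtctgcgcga
The hexamer stood once in each Nr1d1 window and 3 times in the Nr1d2 window. TGTGGT, the RUNX core, is the other run in capitals upstream of Nr1d1. E-boxes were found in 7 of the 49 member regions (14.3%, Wilson 95% interval 7.1 to 26.7%), beside 6.61% of all regions. They were in 2.93% of windows of the same width centred 1000 bp from the summits of all regions. The other 4 were at 2 regions of Rara and at the promoter regions of Thrb and Nr6a1. This motif was added after the sequences had been seen, so its share is a description.

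The next set holds ANTAGGTCA, the extended site that Rev-erb proteins bind as monomers. It was present in 2 member regions (4.1%, interval 1.1 to 13.7%), both distal, beside 0.422% of all regions and 0.454% of the windows 1000 bp away. One lay in an intron of Thrb, the thyroid hormone receptor beta gene (chr14:18021833-18022033, plus strand), and the other upstream of Rarg, the retinoic acid receptor gamma gene (chr15:102263117-102263317, minus strand). Capitals also mark GGAAGT, the ETS core, and its reverse complement ACTTCC, the latter wherever the match is on the other strand.
Thrb intron: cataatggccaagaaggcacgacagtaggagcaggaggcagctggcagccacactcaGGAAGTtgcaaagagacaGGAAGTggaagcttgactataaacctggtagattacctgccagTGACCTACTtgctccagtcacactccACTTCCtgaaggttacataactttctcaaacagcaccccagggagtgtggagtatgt
Rarg upstream: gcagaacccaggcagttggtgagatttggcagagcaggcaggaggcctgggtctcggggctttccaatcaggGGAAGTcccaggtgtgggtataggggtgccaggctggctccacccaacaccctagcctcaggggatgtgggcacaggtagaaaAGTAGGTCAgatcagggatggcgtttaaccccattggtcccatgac
Both matches read AGTAGGTCA, in Thrb on the strand opposite to the gene. The 6-base core AGGTCA that most non-steroid receptors recognise was found in 6 of 49 member regions (12.2%, interval 5.7 to 24.2%), these 2 among them, beside 8.88% of all regions and 12.5% of the windows 1000 bp away. The share under the members' summits was thus close to that in sequence beside all regions. No share was computed for sequence beside the members' regions alone. The strongest promoter region of the family, in an intron of the photoreceptor orphan gene Nr2e3 (chr9:59959401-59959601, minus strand), was another of the 6.
Nr2e3 intron: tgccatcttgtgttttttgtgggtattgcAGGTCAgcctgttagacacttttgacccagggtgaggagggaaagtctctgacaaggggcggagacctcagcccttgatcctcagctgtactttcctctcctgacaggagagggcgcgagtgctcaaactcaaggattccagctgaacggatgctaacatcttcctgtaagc
No member region held a paired receptor site: direct repeats with 1 to 5 bases between copies of AGGTCA, of the variant GGGTCA, of the variant AGTTCA or of the variant GGTTCA, or inverted repeats with 3 bases between. The inverted repeats searched were of the steroid kind (GNACA followed by TGTNC) and the estrogen kind (GGTCA followed by TGACC). A count of 0 of 49 has a Wilson upper bound of 7.3%, and 0.74% of all regions held such a pair. The extended half-site TCAAGGTCA was also searched, and was in 0 of 49 member regions beside 0.188% of all regions.

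Sites for ETS and AP-1 factors were also searched. ACCGGAAGT, the ETS site, occurred in 1 member region (2.0%, beside 1.26% of all regions), the promoter of Nr1h2, where the window upstream of the gene (chr7:44553952-44554079, minus strand) held it on both strands. TGANTCA, the AP-1 site bound by Fos and Jun proteins, occurred in 3 regions, among them the strongest region of Rxra (chr2:27693788-27693988, plus strand), 5 bp from its summit, and 2 regions of Esr1.
Nr1h2 promoter: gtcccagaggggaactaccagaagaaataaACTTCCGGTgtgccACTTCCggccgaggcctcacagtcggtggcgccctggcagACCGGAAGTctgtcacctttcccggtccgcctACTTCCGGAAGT
Rxra intron: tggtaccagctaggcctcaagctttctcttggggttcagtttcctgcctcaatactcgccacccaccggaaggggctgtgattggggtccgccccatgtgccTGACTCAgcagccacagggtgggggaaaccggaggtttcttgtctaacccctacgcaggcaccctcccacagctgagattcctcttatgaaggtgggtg
The AP-1 share was 6.1% of member regions beside 9.39% of all regions. The longer RUNX site TGTGGTTT was in none of the 49, beside 4.61% of all regions. Its 6-base core was in 4 (8.2%, interval 3.2 to 19.2%), beside 21.2% of all regions. All 4 were distal, 17.4% of the 23 distal member regions, beside 29.5% of all regions away from promoters. The ETS core GGAAGT was in 14 (28.6%, interval 17.8 to 42.4%), beside 29.9% of all regions. Both cores were also added after the sequences had been seen.

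Retinoid receptors include the retinoic acid receptors (Rara, Rarb, Rarg) and the RXRs, which serve as partners for many other members. Of the 6, Rara, Rarg and Rxrb had a promoter region. Rara had 5 assigned regions, which only 4.75% of all genes matched or passed, all of them inside the gene. None of them lay at the outermost 5′ end. The strongest, at chr11:98959405-98959909, reached a signal of 14.5 (−log10 p 141), with the summit at -713 bp from an internal TSS and 31881 bp into the gene. The other 2 promoter regions had signals of 5.23 and 3.88, the latter the lowest of the members' 26 promoter regions, and the 2 distal ones 4.78 and 4.57.

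Rarg had its stronger region upstream of the gene, at -5700 bp, with a signal of 22.3, the highest of the 23 distal member regions. Its promoter region, at a signal of 13.6, lay at an internal TSS 10991 bp into the gene. Rxra had no promoter region in the thresholded list but 3 intronic ones, at signals of 19.2, 11.8 and 7.57. The first of these lay at chr2:27693638-27694239, 17448 bp into the gene. In the looser list Rxra gained a weak promoter region, at a signal of 5.77 (IDR 0.14). Rxrb had a single promoter region, at 5.73 the weakest by gene among the 19 receptors and above only 0.6% of all genes with one. That region was also within 1000 bp of a TSS of the zinc transporter gene Slc39a7. Rarb had no region in either list, and Rxrg had 1 intronic region at a signal of 6.07 in the looser list alone.

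The thyroid hormone receptors Thra and Thrb and the vitamin D receptor Vdr all had promoter regions. Thrb, whose gene spans 377.8 kb, had 5 assigned regions, and 4 of them lay in the 3′ part of the gene between 307284 and 361672 bp from its 5′ end. Their signals were 13.8, 14.5, 19.3 and 16.5, the 14.5 at an internal promoter. The fifth region lay at -1094 bp of the 5′ end with a signal of 9.35. It counts as a promoter region because its nearer edge, not its summit, came within 1000 bp. Thra had 1 promoter region, at a signal of 11.8, and Vdr 1, at 11.4, each at an internal TSS (1154 and 2312 bp from the 5′ end). Together with Rara and Rarg, these 2 genes make 4 of 19 receptors whose promoter regions all lay at internal TSSs (21.1%), beside 7.99% of all genes with a promoter region. No interval was computed for this share. The Thra region began at chr11:98741659, just outside 1000 bp of the 5′ end at 98740638. In the looser list, Thra had a region with its summit 27 bp from the 5′ end (signal 4.15), and Rarg had a region at -105 bp (6.22). Both had an IDR of 0.388. The looser list added no region at the 5′ ends of Rara and Vdr. The number of annotated TSSs was not matched, at 241 over the 42 members and 93513 over all 21938 genes.

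**Figure D2:**
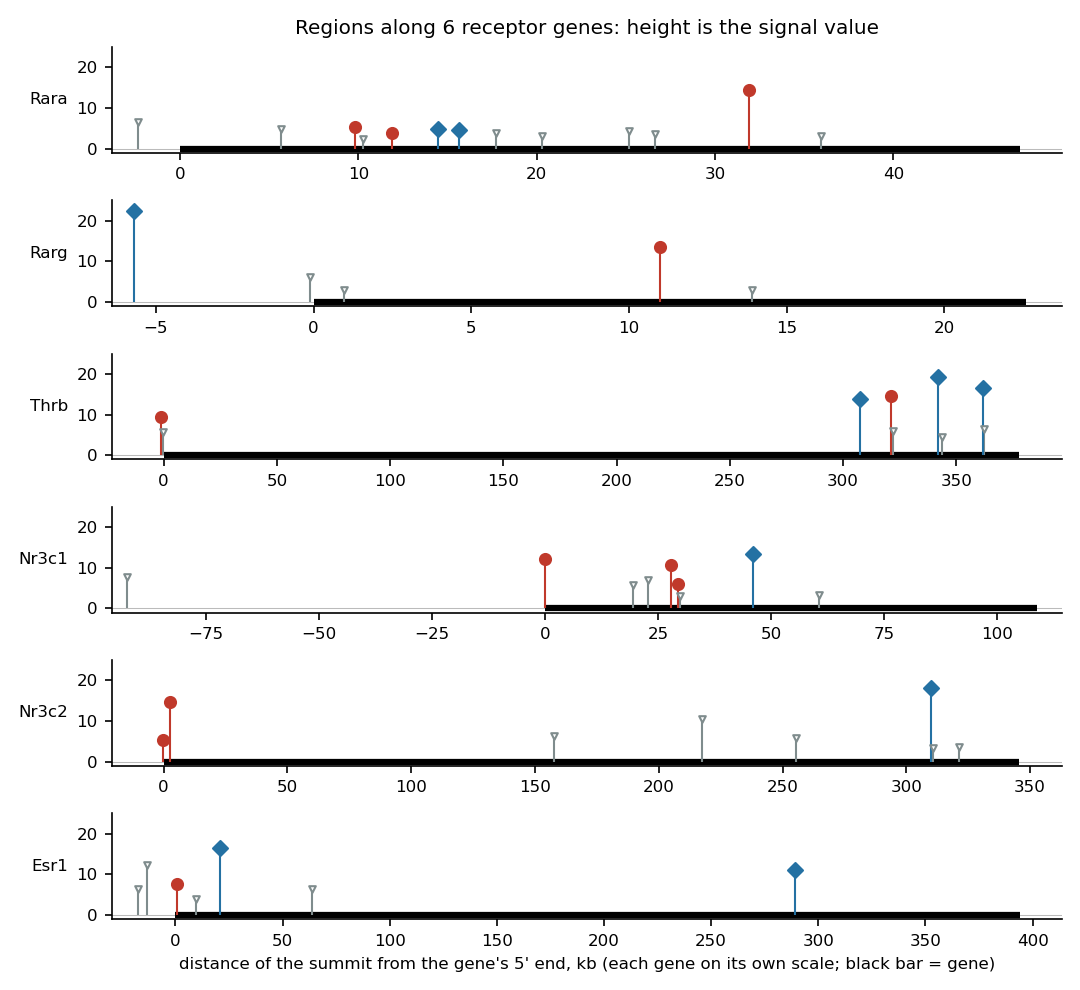
Signal value (y axis, stem height) of regions assigned to Rara, Rarg, Thrb, Nr3c1, Nr3c2 and Esr1 by distance of the summit from the gene's 5′ end in kb (x axis, each gene on its own scale; black bar, gene body). Red circles are promoter regions, blue diamonds distal regions, and grey triangles regions of the looser list alone. In Thrb, 4 of 5 thresholded regions stand in the last part of the gene, and in Rarg the tallest stands upstream.

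Several of these genes are neighbours in the genome. On chromosome 11, Thra and Nr1d1 overlap at their 3′ ends and Rara follows 152.5 kb away, and these 3 genes had 8 assigned regions. On chromosome 14, Rarb, Thrb and Nr1d2 span 1808.3 kb and had 7 assigned regions, 5 at Thrb, 2 at Nr1d2 and 0 at Rarb. On chromosome 2, Nr5a1 and Nr6a1 lie 8.8 kb apart, with 0 and 1.

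The liver X receptors Nr1h2 and Nr1h3 sense oxysterols, and Nr1h4 is the bile acid receptor. Nr1h2 had 1 promoter region, with a summit at -28 bp and a signal of 14.5. Nr1h3 had 2 promoter regions. The stronger, at a signal of 14.6, lay at the gene's 5′ end and within 1000 bp of the TSS of Acp2, the lysosomal acid phosphatase gene, to which it was assigned, so it could belong to either gene. The weaker, at 9.45, was inside Nr1h3. Nr1h4 had no region in either list, and the nearest thresholded region lay 44.3 kb from its TSSs.

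Fatty acid receptors showed a similar division. Ppard had a promoter region at 19.04 and a stronger intronic region at 21.4, 24320 bp into the gene. Ppara had a promoter region at 18.2 and a distal region at -25468 bp with a signal of 10.7. Both promoter signals were above more than 60% of those of all genes (66.2% and 61.1%). Pparg, the adipocyte regulator that also marks regulatory T cells of fat tissue, had no region in either list, and the nearest thresholded region lay 98.8 kb away.

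Among the clock repressors, Nr1d2 had a promoter region of 1523 bp with a −log10 p of 251 and a signal of 12.7, and a second region downstream of the gene at 12.5. Nr1d1 had 2 regions, at 17.0 and 8.16. Its stronger one, chr11:98773712-98774316, had its summit 1262 bp inside the gene and its nearer edge 1017 bp from a TSS, so it was just outside the promoter window and the gene counts as distal only. Rorb, a retinoid-related orphan receptor of neurons, had no thresholded region. Its promoter held a region in the looser list, at -54 bp (signal 12.7, IDR 0.0508), directly outside the threshold. The −log10 p of that region in the 2 inputs was 22.5 and 13.9.

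Steroid receptors reside with chaperones until a hormone binds. Nr3c1, the glucocorticoid receptor gene, had 4 assigned regions, which 7.48% of all genes matched or passed. Its 3 promoter regions had signals of 12.3 at the 5′ end and 10.7 and 5.98 at internal TSSs between 27812 and 29470 bp into the gene, and an intronic region at 45947 bp had 13.3. Nr3c2, the mineralocorticoid receptor gene, had promoter regions at 14.6 and 5.43 and an intronic region at 18.1, 310110 bp into the gene. Esr1, estrogen receptor alpha, had a weak promoter region at 7.54, above 3.0% of all genes with one, and intronic regions at 16.4 and 11.1. Esr2 had a single distal region at -19541 bp with a signal of 14.9, and Pgr, the progesterone receptor gene, had none in either list. The nearest thresholded region to Pgr lay 856.5 kb away.

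Estrogen-related receptors share the name but not the hormone. Esrra, a regulator of mitochondrial genes, had 1 promoter region, at -232 bp (signal 19.2, −log10 p 251). Its relatives Esrrb and Esrrg had no region in either list, although Esrrg spans 606.1 kb.

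Of the orphan NR2 genes, Nr2e3, Nr2c2 and Nr2f6 had promoter regions. Nr2e3 had the highest promoter signal of the family, 28.3, above 98.3% of all genes with a promoter region. That region's summit was 1154 bp downstream of the nearest TSS of the gene and its nearer edge 820 bp from one. A further 2 regions lay downstream of the gene at 12.2 and 7.70. Both of these were within 1000 bp of a TSS of Gm20275, which is not annotated as protein-coding. Regions were assigned to protein-coding genes only. Nr2c2, the testicular receptor TR4, had 1 promoter region, at 19.5 with a −log10 p of 368. Its partner Nr2c1 had only a looser-list promoter region, at 7.98 and an IDR of 0.073. Nr2f6, a known repressor of cytokine genes in T cells, had a promoter region at 8.24, above 4.7% of all genes with one. Its −log10 p was 8.37 in one input and 18.96 in the other. The inputs were within 2-fold in the other 48 member regions and in 98.2% of all regions. Whether the inputs were replicates or pseudoreplicates is not stated in the sources used here. Nr2f1 and Hnf4a had distal regions in the looser list alone, and Nr2e1, Nr2f2 and Hnf4g had none in either. The Nr2f1 regions at 10.2 and 5.62 had their summits inside another gene, Fam172a, in a coding exon and an intron.

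In the last group, Nr6a1, the germ cell nuclear factor, had a promoter region at 22.8, above 85.4% of all genes with one, with a −log10 p of 415, the highest of any member region. Nr5a2, a receptor whose ligands are phospholipids, had 2 intronic regions at 13.9 and 6.83, over 80 kb from its nearest TSS (80934 bp for the stronger). Nr5a1, Nr0b1 and Nr0b2, genes of steroid-producing tissues and liver, had none in either list. The xenobiotic receptors Nr1i2 and Nr1i3 also had none, with the nearest thresholded regions 51.8 and 7.8 kb away.

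**Figure D3:**
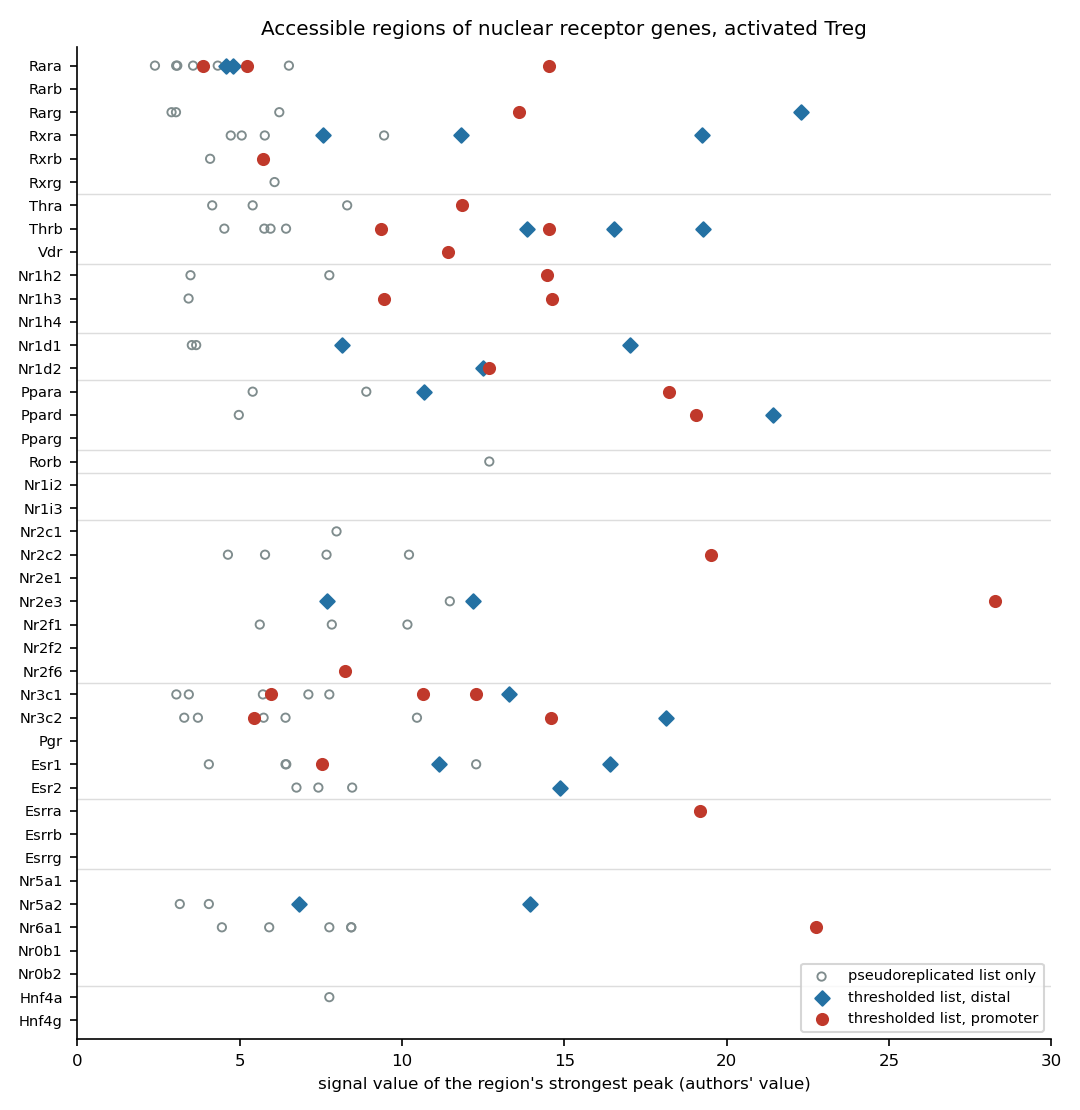
Signal value of each region (x axis) at or assigned to each of the 42 genes (y axis, lines between receptor groups). Red circles are promoter regions and blue diamonds distal regions of the thresholded list, and hollow circles are regions of the looser list alone. The right-most points are the promoter region of Nr2e3 at 28.3, the promoter region of Nr6a1 at 22.8 and the upstream region of Rarg at 22.3.

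Promoter signals were set beside those of all genes. The median of the strongest promoter signal was 14.5 over the 19 members and 16.6 over all genes with a promoter region, and 13 of the 19 were below the median of all genes (68.4%, interval 46.0 to 84.6%), an interval that includes an even split. At 6 of the 19, a distal region was stronger than any promoter region (31.6%, interval 15.4 to 54.0%), beside 20.2%: Rarg, Thrb, Ppard, Nr3c1, Nr3c2 and Esr1. The 23 distal member regions had a median signal of 13.3 beside 12.7 over all regions away from promoters, and a median width of 605 bp beside 527.5 bp. Of these, 16 lay in an intron of the gene they were assigned to and 7 between genes. At least 3 assigned regions were found at 7 members (16.7%, interval 8.3 to 30.6%), beside 12.5% of all genes: Rara, Thrb, Nr3c1, Rxra, Nr2e3, Nr3c2 and Esr1. The mean was 1.14 regions per member and 1.13 per gene overall.

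Of the 19 genes without a thresholded region, 5 had a region in the looser list (26.3%, interval 11.8 to 48.8%), beside 23.4% of all genes in that position. The remaining 14 (33.3% of the 42, interval 21.01 to 48.4%), beside 32.8% of all genes, were Rarb, Nr1h4, Pparg, Nr1i2, Nr1i3, Nr2e1, Nr2f2, Pgr, Esrrb, Esrrg, Nr5a1, Nr0b1, Nr0b2 and Hnf4g. At 10 of the 19, the nearest thresholded region was over 100 kb from every TSS, up to 1637.5 kb at Hnf4g. Median gene length was 49.2 kb for these 19 and 56.2 kb for the 23 with a region, beside 17.4 kb over all genes. The shares set beside all genes were not matched for gene length. Just inside the threshold lay the weakest Rxra region, at an IDR of 0.0492 (signal 7.57) and an Nr5a2 region at 0.0489 (6.83). Just outside lay Rorb at 0.0508 and a distal region assigned to Nr2f1, in a coding exon of Fam172a, at 0.0564 (10.2). With the depth unknown, a gene without a region is one at which no peak was called, not one shown to be inaccessible.

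CpG content was compared at the 5′ ends. Within 500 bp of the 5′ end, the median observed-to-expected CpG ratio was 0.657 in the 19 members with a promoter region and 0.463 in the 23 without. In all genes the same medians were 0.736 and 0.251. The ratio is taken at the 5′ end, so it was set against regions within 1000 bp of that end. Among members with a ratio of 0.6 or more, 10 of 16 had such a region (62.5%), beside 76.6% of all genes in that class. Below that ratio, 5 of 26 had one (19.2%), beside 18.5%. The 4 receptors with promoter regions at internal TSSs alone also fall in this lower class. Over single TSSs, the median ratio was 0.702 at the 88 accessible and 0.343 at the other of the members' 241 TSSs, beside 0.739 and 0.255 over all genes. Each combination is shown by the 150 bases upstream of 1 gene on its own strand, with each CG in capitals: Nr2c2 (chr6:92091240-92091389, plus strand) with a promoter region and many CGs, Pparg (chr6:115360801-115360950, plus strand) with many and no region, Nr6a1 (chr2:38927689-38927838, minus strand) with a strong region 942 bp into the gene and few, and Rarb (chr14:16819157-16819306, minus strand) with neither.
Nr2c2 upstream: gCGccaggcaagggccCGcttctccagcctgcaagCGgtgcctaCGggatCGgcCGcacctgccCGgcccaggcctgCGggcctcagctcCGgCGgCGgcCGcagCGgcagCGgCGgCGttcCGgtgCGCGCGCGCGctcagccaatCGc
Pparg upstream: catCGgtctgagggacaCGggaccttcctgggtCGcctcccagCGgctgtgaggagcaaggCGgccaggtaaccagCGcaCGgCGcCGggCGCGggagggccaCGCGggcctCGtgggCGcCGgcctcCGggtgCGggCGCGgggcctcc
Nr6a1 upstream: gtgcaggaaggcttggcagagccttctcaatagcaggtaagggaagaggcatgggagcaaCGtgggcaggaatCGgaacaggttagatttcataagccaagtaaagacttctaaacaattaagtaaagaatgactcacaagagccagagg
Rarb upstream: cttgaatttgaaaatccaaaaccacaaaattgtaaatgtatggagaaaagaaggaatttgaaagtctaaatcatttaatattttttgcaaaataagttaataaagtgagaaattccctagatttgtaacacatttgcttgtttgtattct
These windows hold 23, 20, 2 and 0 CGs. Over the wider window the ratio was 0.927 at Nr2c2 and 0.947 at Pparg, 0.387 at Nr6a1 and 0.1 at Rarb. Nr2f1 (0.925), Nr2c1 (0.715), Nr2e1 (0.7), Esrrg (0.663) and Rorb (0.616) were CpG-rich without a thresholded promoter region, like Pparg. Of the 15 members with a region within 1000 bp of the 5′ end itself, Nr3c1 had the lowest ratio, 0.317, and Esr1 the next, 0.331.

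**Figure D4:**
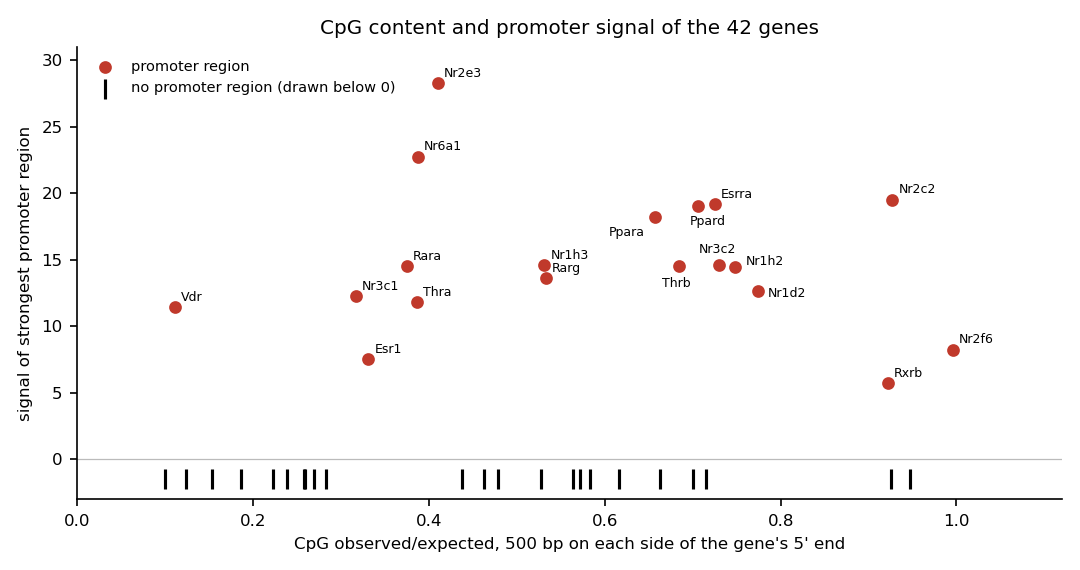
Signal of the strongest promoter region (y axis) against the observed-to-expected CpG ratio within 500 bp of the gene's 5′ end (x axis) for the 42 genes. Red points are the 19 genes with a promoter region, and black ticks, drawn below 0, the 23 without. Ticks reach a ratio of 0.947 (Pparg). At Rara, Rarg, Thra and Vdr every promoter region lies at an internal TSS, away from where the ratio was taken. The regions drawn for Thrb and Nr3c2 are also at internal TSSs, 321185 and 2678 bp from the 5′ end. Each of these genes has a weaker promoter region at the 5′ end, at 9.35 in Thrb and 5.43 in Nr3c2.

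Genes that act with these receptors were counted in the same way. Over all genes, 49.1% had a promoter and 53.1% an assigned region. Of 16 coregulators, 13 had a promoter region (81.2%) and 15 an assigned region (93.8%). Nrip1, a corepressor, had 12 assigned regions and Tbl1xr1, a subunit of the NCoR complex, had 11, while the coactivator gene Ppargc1a had none. All 7 receptor chaperones had a promoter region, among them Fkbp5 with 5 assigned regions and Hsp90ab1 with 2. Of 13 genes of retinoid metabolism, 2 had a promoter region (15.4%) and 6 an assigned region (46.2%), and of 12 genes for other ligands 3 and 5 (41.7%). Cyp26b1, which degrades retinoic acid, had 3 distal regions and Dhrs3, a retinal reductase, 2 regions, while the retinal dehydrogenases Aldh1a1 and Aldh1a3 had none. Of 21 textbook receptor targets, 16 had a promoter region (76.2%) and 18 an assigned region (85.7%), and the lipid exporter genes Abcg1 and Abca1 had 8 and 5 assigned regions. Angptl4 and Pdk4, targets of the fatty acid receptors, had none. Rora, Nr4a1, Nr4a3 and Nr4a2, family genes outside the 42, had 8, 6, 6 and 3 assigned regions.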

How the data were processed

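ATAC-seq libraries of activated regulatory T cells (2 technical replicates) were represented by 3 peak lists on mm10 that derive from 1 alignment, per the file headers of the accompanying text files. Which aligner and peak caller were used, and whether reads were shifted for the transposase, was not given in the sources used here. Enrichment per peak is the deposited signal value, the deposited −log10 columns used hold p and IDR, and the deposited score, up to 1000, follows the IDR in the thresholded list. Depth and spread between animals are unknown.

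Overlapping peaks (1 bp or more) were merged, and each region took the signal and strongest summit of its highest peak. Promoters, assignment, CpG ratios and motif matches were computed with pandas 2.3.3, scipy 1.17.1 and numpy 2.4.6 under Python 3.11.15, and drawn with matplotlib 3.10.9, with genes from GENCODE M21 and sequence from the RefSeq copy of GRCm38.p6. Merging, promoters, assignment and the search for AGGTCA were tested on simulated data. The CpG ratios and the other motifs were not. The members, gene lists and motifs were chosen with earlier results of these data known. Every member is accounted for, and of other lists at most 4 genes are named (the 2 with most regions and 2 with none, ties by name). No test was made. Wilson 95% intervals are given for the main shares of members, and other shares have none. Alternatives are in the closing section.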

Additional observations from a re-analysis of the deposited data

How the results depend on the processing

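Alternatives to the thresholded list, the windows and the assignment were run for 11 results, 43 in all, and 35 gave values within 1.5 times the reported count or median, or within its interval. The 8 others follow. Regions assigned to members rose in number from 48 to 115 in the pseudoreplicated list and to 96 when every peak was counted on its own. The share of all genes with a promoter region, 49.1%, was 55.7% in the pseudoreplicated list, 45.6% at an IDR of 0.01 or below, 48.3% and 50.9% with promoter windows of 500 and 2500 bp, and 45.2% with 1 TSS per gene. AGGTCA was in 4.08% of member regions within 50 bp of the summit, in place of 12.2%. Members with a promoter region ranged from 14 to 24: Thra, Vdr, Ppara, Nr2f6 and Esr1 were lost at the stricter IDR, Nr2e3 with the narrower window, and Rara, Rarg, Thra and Vdr with 1 TSS per gene, while the pseudoreplicated list added Rxra, Nr1d1, Rorb, Nr2c1 and Esr2 and the wider window Nr1d1. Of the 42 members, 24 had a promoter region in the pseudoreplicated list, 14 at the stricter IDR and 15 with 1 TSS per gene. Windows of 500 and 2500 bp gave 18 and 20. Set beside the shares of all genes above, the members' share was above that of all genes in the pseudoreplicated list and below it in the other settings. Both libraries are pooled in every list, so neither could be left out. No paired analysis was possible because no value belongs to a single library. Unknown depth limits what the genes without a region show.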
